A study of Mus musculus with 15 samples.

Results

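Pericytes are the contractile and supportive cells that wrap the capillaries, and 8 genes used to mark them were followed through bleomycin injury of the mouse lung: Cspg4, Notch3, Higd1b, Cox4i2, Kcnk3, Gucy1b1, Trpc6 and Ndufa4l2. They were chosen by name, with Ensembl identifiers turned into symbols through the GENCODE M21 annotation, and were 8 of the 33340 genes in the count table. All 8 were among the 17457 genes that passed the filter on low counts, and no library had fewer than 127 counts for any of them.

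Pericytes share the basement membrane of the endothelium, are recruited by endothelial PDGF-B through the receptor Pdgfrb, and belong with vascular smooth muscle to the mural cells. Notch signalling from endothelial ligands to Notch3 maintains mural cells, and nitric oxide from the endothelium relaxes them through soluble guanylate cyclase and cyclic GMP. In fibrotic lungs pericytes have been discussed as a source of matrix-producing cells, and their markers are also used to separate them from fibroblasts, although Cspg4 and Notch3 are also made by smooth muscle cells and Cspg4 by some stromal and glial progenitors.

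RNA-seq of polyadenylated RNA was carried out on whole lung of C57BL/6 mice, which the study's methods give as males aged 10 to 12 weeks. The lungs were taken at day 0 (4 libraries) and 7, 14 and 21 days (4, 4 and 3 libraries) after 5 U/kg bleomycin, a drug that breaks DNA and scars the lung, was given into the trachea. Day 0 replicates 1 to 3 were labelled as untreated. Day 0 replicate 4 was titled as a control but its treatment label named bleomycin, so the calls of named genes that were lost without it are given with the results. The design text named fewer replicates per time point than the titles, and the study's text calls its replicates biological, but no label said that the libraries of a day came from separate mice, so p-values measure the spread between these libraries only.

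Total counts ran from 15652008 to 18020661 per library. The levels are CPM, counts scaled to library sizes that were adjusted by TMM, and the tests are edgeR's quasi-likelihood tests over all 17457 genes with Benjamini-Hochberg adjustment. To be called changed, a gene had to pass both an adjusted p of 0.05 and a 1.5-fold difference. Markers of lung epithelium such as Sftpc summed to between 48752.5 and 63997.4 CPM at day 0, and the mural gene Pdgfrb stood at 93.2 to 116 CPM there. The share of counts from 16 mitochondrial genes fell into a lower and a higher range that crossed the days: all 4 day 7 libraries, day 0 replicates 1 and 2 and day 14 replicate 1 lay under 2.5%, while day 0 replicates 3 and 4, the other day 14 libraries and day 21 replicate 1 lay over 3.5%, with day 21 replicates 2 and 3 between. In whole tissue, fewer cells of a type and less RNA per cell cannot be told apart, and neither can RNA of pericytes and RNA of other cells that use the same gene.

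After bleomycin the 8 markers did not move as 1 group. Cspg4 was higher than at day 0 at every later day, and reached 3.47-fold at day 21. Gucy1b1 and Cox4i2 were lower at days 14 and 21, with Gucy1b1 at 0.510-fold of day 0 at day 14, and Higd1b was lower at day 7. Notch3, Kcnk3, Trpc6 and Ndufa4l2 passed the thresholds at no day. Against day 0, 1 marker was higher and 1 lower at day 7, 1 higher and 2 lower at day 14, and 1 higher and 2 lower at day 21. Without day 0 replicate 4, 0 were higher and 0 lower at day 7, and 1 was lower at day 21. Of all genes tested, 8.78% were higher and 7.36% lower at day 7, 12% higher and 11.2% lower at day 14, and 12.4% higher and 10.1% lower at day 21. For 8 genes, the counts from all 15 libraries were near these shares at each day for higher markers, and about 1 gene above them at days 14 and 21 for lower markers. The median log2 fold change of the markers was -0.29 at day 7, -0.39 at day 14 and -0.25 at day 21, beside medians of 0.01, 0.02 and 0.02 over all genes tested. The 3 comparisons share the day 0 libraries.

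**Figure D1:**
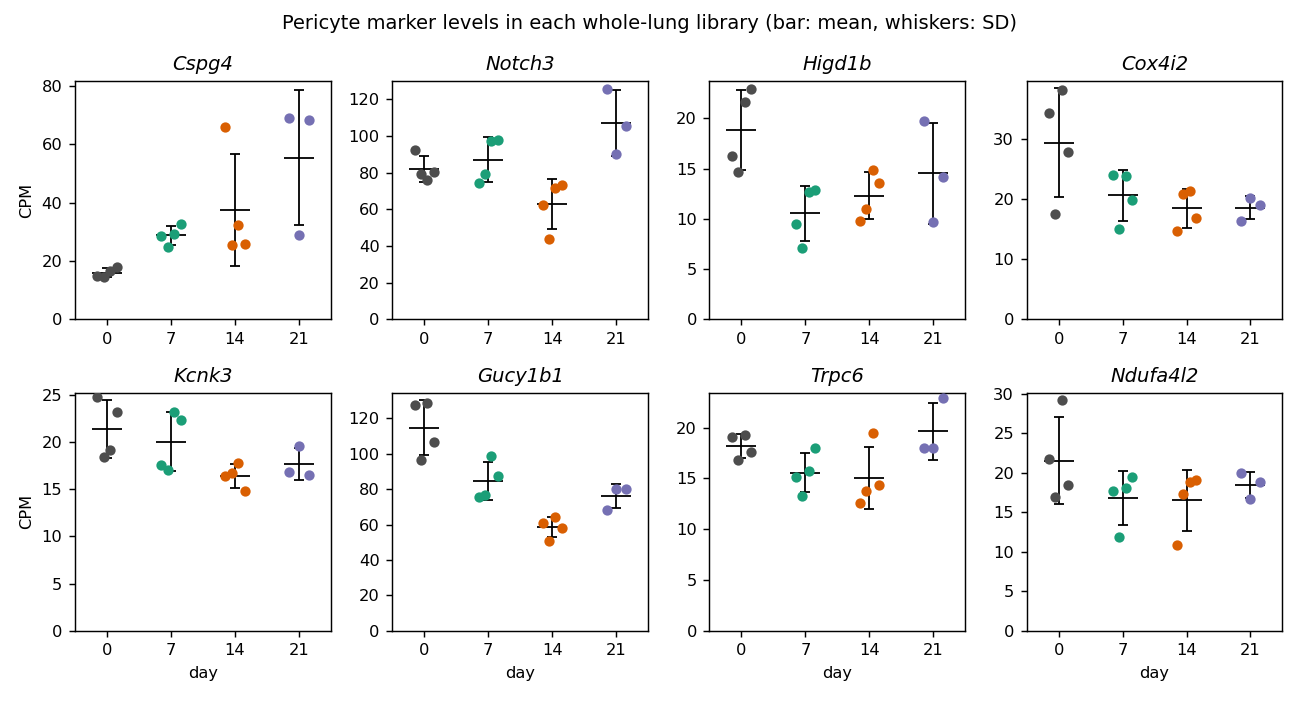
Level of each pericyte marker in each of the 15 libraries, in CPM on a linear axis from 0, by day after bleomycin; points are libraries, bars the mean and whiskers the SD (n = 4, 4, 4 and 3). Cspg4 lies above its day 0 range in all 11 later libraries, Gucy1b1 lies below its day 0 range in all day 14 and day 21 libraries, and Notch3 is lowest at day 14 and highest at day 21.

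Cspg4, which encodes the chondroitin sulfate proteoglycan NG2 on the pericyte surface, lies on chromosome 9 at chr9:56865033-56899870 on the plus strand of mm10. Its level at day 0 was 14.8, 14.5, 16.6 and 18.1 CPM in replicates 1 to 4. At day 7 it was 28.7, 24.6, 29.3 and 32.6 CPM. All day 7 libraries were above all day 0 libraries. At day 14 it was 65.9, 25.4, 32.5 and 26.0 CPM, and at day 21 it was 69.2, 28.8 and 68.4 CPM. Every library after bleomycin was again above day 0, but day 14 replicate 1 and day 21 replicates 1 and 3 stood far above the rest, so that the spread at these days was wide. The group means were 15.99 ± 1.68, 28.8 ± 3.29, 37.4 ± 19.2 and 55.5 ± 23.1 CPM (SD, n = 4, 4, 4 and 3).

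The log2 fold change of Cspg4 against day 0 was 0.85 ± 0.30 (SE, adjusted p = 0.0478) at day 7, 1.23 ± 0.30 (adjusted p = 0.00543) at day 14 and 1.79 ± 0.32 (adjusted p = 0.000676) at day 21. The day 7 call was at the edge of the threshold: leaving out any single library gave log2 fold changes of 0.78 to 0.92 with adjusted p between 0.0640 and 0.103, and the mitochondrial share as a covariate gave 0.58 (adjusted p = 0.331). Within the libraries under 2.5% mitochondrial share, 4 at day 7 and 2 at day 0, Cspg4 rose by 0.96 (adjusted p = 0.00265). The day 14 and day 21 calls held in every fit. Day 14 still gave 0.78 (adjusted p = 0.0198) when its replicate 1 was left out, and within the libraries over 3.5% mitochondrial share, 3 at day 14 and 2 at day 0, it was 0.68 (adjusted p = 0.0297). Without day 0 replicate 4 the values were 0.89 (adjusted p = 0.0810), 1.27 (adjusted p = 0.0123) and 1.82 (adjusted p = 0.00216) at days 7, 14 and 21. Day 14 against day 7 gave 0.38 ± 0.29 (adjusted p = 0.442) and day 21 against day 14 gave 0.57 ± 0.31 (adjusted p = 0.571), neither of which passed, and day 21 against day 7 was not tested.

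The 3 libraries with the most Cspg4 also had the highest summed level of fibroblast genes. The summed level of 7 fibroblast genes (Col1a1, Col1a2, Pdgfra, Dcn, Lum, Tcf21 and Pi16) was 10085.2 CPM in day 14 replicate 1, 7057.3 CPM in day 21 replicate 1 and 6140.8 CPM in day 21 replicate 3, against 1100.2 to 1568.1 CPM at day 0 and 2485.4 to 4094.1 CPM in the other 8 libraries. Of these genes Col1a1, Col1a2 and Lum were higher at each day, with Col1a1 up by 2.99 ± 0.46 on the log2 scale (adjusted p = 0.000246) at day 21, and Tcf21 and Pi16 were lower at days 14 and 21, beside the shares of all genes given above. Pdgfra and Dcn passed the thresholds at no day against day 0. The median log2 fold change of the 7 genes was 0.37, -0.23 and 0.20 at days 7, 14 and 21, so their sum does not describe each gene. The summed level of 8 smooth muscle genes, led by Acta2, was 1187.6, 1085.3 and 851.4 CPM in the same 3 libraries and 311.3 to 706.7 CPM in the other 12. The part of fibroblasts and smooth muscle in the Cspg4 values was not tested.

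**Figure D2:**
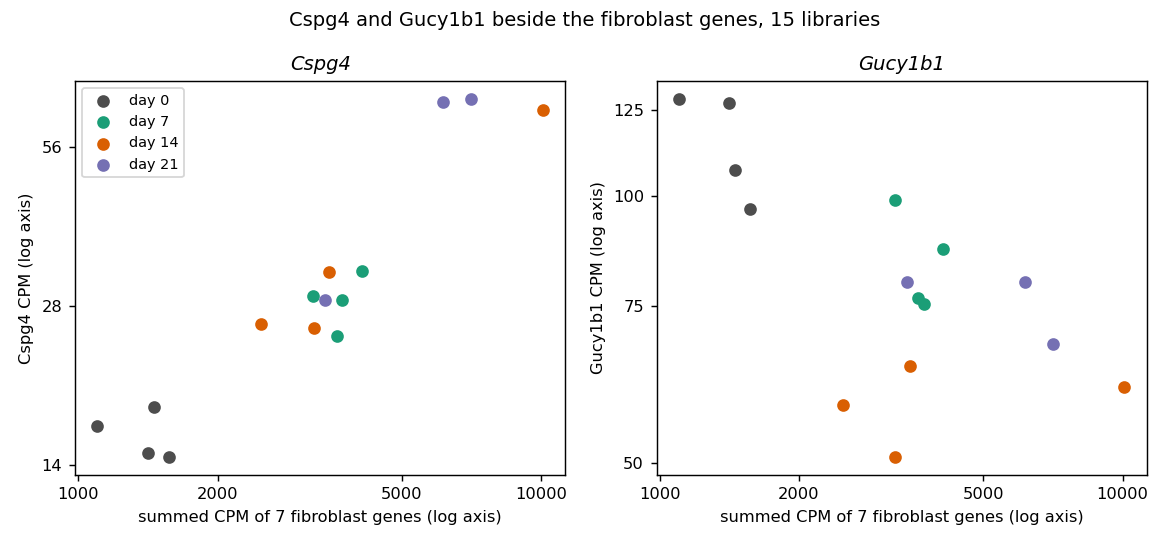
Cspg4 (left) and Gucy1b1 (right) in CPM against the summed CPM of 7 fibroblast genes, both axes logarithmic, 1 point per library coloured by day (15 libraries). The 3 libraries farthest to the right hold the highest Cspg4 levels, 65.9 to 69.2 CPM, while Gucy1b1 in the same libraries lies between 60.9 and 79.9 CPM, within the range of the other day 14 and day 21 libraries.

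Gucy1b1 encodes the beta 1 subunit of soluble guanylate cyclase, the haem protein that binds nitric oxide, and lies at chr3:82032006-82074689 on the minus strand. Its level at day 0 was 127, 96.6, 128 and 107 CPM, and at day 7 it was 75.4, 76.6, 98.8 and 87.2 CPM. These groups overlapped in 1 day 7 library, replicate 3. At day 14 the level was 60.9, 50.8, 64.2 and 58.1 CPM, and at day 21 it was 68.0, 80.0 and 79.9 CPM. Both of the later groups lay wholly below day 0, and every day 14 library lay below every day 21 library. The group means were 115 ± 15.7, 84.5 ± 10.9, 58.5 ± 5.72 and 76.0 ± 6.88 CPM (SD, n = 4, 4, 4 and 3).

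The log2 fold change of Gucy1b1 was -0.44 ± 0.12 (SE, adjusted p = 0.0156) at day 7, which was under the fold threshold, -0.97 ± 0.12 (adjusted p = 3.47e-05) at day 14 and -0.60 ± 0.13 (adjusted p = 0.00339) at day 21. At day 14 the call held in every fit, with values from -1.07 to -0.93 when single libraries were left out and -1.04 (adjusted p = 0.00290) within the libraries over 3.5% mitochondrial share. At day 21 the value was close to the fold threshold and passed under it without day 0 replicate 1 (-0.58), day 0 replicate 3 (-0.57) or day 21 replicate 1 (-0.55). Without day 0 replicate 4 the values at days 14 and 21 were -1.03 (adjusted p = 0.000109) and -0.66 (adjusted p = 0.00426). Gucy1b1 was lower at day 14 than at day 7 by 0.53 ± 0.12 on the log2 scale (adjusted p = 0.0203), less than 1.5-fold. That adjusted p rose above 0.05 in 3 of 8 fits that left out a library (up to 0.0643), and was 0.122 with the mitochondrial share as a covariate, a share that was under 2.5% in all day 7 libraries and over 3.5% in 3 of 4 at day 14. The difference between day 21 and day 14 was 0.38 ± 0.13 (adjusted p = 0.389).

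The promoters of Cspg4 and Gucy1b1 are shown because they had the largest rise and the largest fall among the markers at day 14. Each is RefSeq sequence of GRCm38.p6 from 250 bases before to 50 bases after the annotated start, read along the gene's own strand, and 4 of the 8 markers (also Notch3 and Trpc6) had an entry. Capitals mark matches on either strand to a SMAD core spelled CAGAC, a GC box spelled GGGCGG and an RBPJ core spelled TGGGAA. A hypoxia core spelled ACGTG was searched as well, and none of the marked matches overlap. The Cspg4 window is chr9:56864854-56865153 on the plus strand and the Gucy1b1 window chr3:82074662-82074961 on the minus strand.
Cspg4: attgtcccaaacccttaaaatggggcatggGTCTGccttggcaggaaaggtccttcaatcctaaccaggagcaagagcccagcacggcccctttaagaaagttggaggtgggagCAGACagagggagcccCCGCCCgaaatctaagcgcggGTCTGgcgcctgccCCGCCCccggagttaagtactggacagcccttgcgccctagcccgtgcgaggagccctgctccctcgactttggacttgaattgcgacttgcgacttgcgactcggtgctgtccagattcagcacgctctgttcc
Gucy1b1: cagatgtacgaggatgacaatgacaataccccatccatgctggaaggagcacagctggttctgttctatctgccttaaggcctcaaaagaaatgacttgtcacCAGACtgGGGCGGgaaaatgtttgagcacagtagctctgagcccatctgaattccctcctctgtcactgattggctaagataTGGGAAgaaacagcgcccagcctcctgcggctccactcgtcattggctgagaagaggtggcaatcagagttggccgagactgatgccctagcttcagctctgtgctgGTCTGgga
The Cspg4 window held 3 SMAD cores and 2 GC boxes, and the Gucy1b1 window held 2 SMAD cores, 1 GC box and 1 RBPJ core. The Notch3 window held 2 hypoxia cores, 2 SMAD cores and 4 GC boxes, and the Trpc6 window held 1 hypoxia core and 2 SMAD cores. Short motifs of this kind are common: of 32817 promoters of the same length, 49.6% held a SMAD core, 35.6% a GC box, 25.6% an RBPJ core and 19.6% a hypoxia core. A match is a run of letters and not a measured binding site.

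The alpha partner of Gucy1b1 moved in the same direction. Gucy1a1, the alpha 1 subunit of the same enzyme, was at 163, 130, 108 and 118 CPM at day 0 and at 63.1, 52.3, 91.4 and 80.8 CPM at day 14. No day 14 library reached the day 0 range, and the log2 fold change was -0.85 ± 0.20 (SE, adjusted p = 0.00410), with -0.63 ± 0.22 (adjusted p = 0.0377) at day 21. The day 14 value within the libraries over 3.5% mitochondrial share was -0.61 (adjusted p = 0.0821), and the day 21 call was lost in 4 of 7 fits that left out a library. Of 8 genes of nitric oxide and cyclic GMP signalling (Nos3, Gucy1a1, Gucy1a2, Prkg1, Prkg2, Pde5a, Pde3a and Npr1), 0 were higher and 2 lower at day 7, 1 higher and 4 lower at day 14, and 0 higher and 3 lower at day 21. Without day 0 replicate 4, 1, 3 and 2 were lower at days 7, 14 and 21. The day 21 calls of Gucy1a1 and Pde5a were both lost without day 21 replicate 1. Over all genes tested the lower share was 7.36%, 11.2% and 10.1% on these days.

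Npr1, the receptor for atrial natriuretic peptide that makes cyclic GMP at the membrane, was lower at all 3 days, by 0.66 ± 0.22, 0.83 ± 0.22 and 0.79 ± 0.24 on the log2 scale (adjusted p = 0.0389, 0.00940 and 0.0215). Pde5a, which breaks down cyclic GMP, was lower at day 14 by 0.71 ± 0.22 (adjusted p = 0.0244) and at day 21 by 0.69 ± 0.24 (adjusted p = 0.0427). Its day 14 call was lost in 2 of 8 fits that left out a library and its day 21 call in 4 of 7, with -0.49 (adjusted p = 0.144) without day 21 replicate 1 and -0.72 (adjusted p = 0.0641) without day 0 replicate 4. Pde3a, a phosphodiesterase that cyclic GMP inhibits, was lower at day 7 by 0.70 ± 0.13 (adjusted p = 0.00173) and at day 14 by 0.62 ± 0.13 (adjusted p = 0.00214). Nos3, the endothelial nitric oxide synthase, was the member that rose, by 1.09 ± 0.30 (adjusted p = 0.0110) at day 14, where 1 library stood at 43.2 CPM and the other 3 between 15.2 and 22.7 CPM. The cyclic GMP-dependent kinase genes Prkg1 and Prkg2 and the alpha 2 subunit Gucy1a2 passed the thresholds at no day. Of 7 endothelial genes, 0 were higher at any day, and 3, 3 and 1 were lower at days 7, 14 and 21, beside the same shares of all genes, and the part of endothelial RNA in these values was not tested.

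Notch3, the Notch receptor of mural cells, lies at chr17:32120820-32166852 on the minus strand, where 488 bases of its exons are shared with Gm17276 on the other strand. It stood at 92.3, 79.2, 76.2 and 80.4 CPM at day 0 and at 74.1, 79.1, 97.1 and 97.9 CPM at day 7, and these ranges overlapped. At day 14 it was 62.4, 43.8, 71.9 and 73.0 CPM, below every day 0 library, and at day 21 it was 126, 89.9 and 105 CPM, with 2 of 3 libraries above every day 0 library. Against day 0 the log2 fold change was 0.09 ± 0.16 (SE, adjusted p = 0.723) at day 7, -0.39 ± 0.16 (adjusted p = 0.0683) at day 14 and 0.38 ± 0.17 (adjusted p = 0.0959) at day 21, so none passed. Without day 0 replicate 4 the last 2 were -0.41 (adjusted p = 0.0885) and 0.34 (adjusted p = 0.191).

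Day 21 lay above day 14 in all 3 libraries of Notch3 against all 4, by 0.77 ± 0.17 on the log2 scale with an unadjusted p of 0.000306 and an adjusted p of 0.237 by edgeR. In that comparison 0% of genes were called by edgeR, 1714 had an unadjusted p under 0.05, and of the 8 markers 0 were called. DESeq2 gave Notch3 0.76 (adjusted p = 0.0126), and edgeR without the filter on low counts gave 0.75 (adjusted p = 0.0496), while the adjusted p ranged from 0.0685 to 0.777 in the other fits. Of 13 other Notch genes, 3 were lower at day 7 (Notch4, Dll4 and Hey1), 1 higher and 1 lower at day 14, and 1 higher and 0 lower at day 21. At day 7, where 7.36% of all genes were lower, the count was 1 without day 0 replicate 4. At days 14 and 21 these counts were no larger than the shares of all genes, 12% higher and 11.2% lower at day 14 and 12.4% higher and 10.1% lower at day 21. Heyl, a Notch target of mural cells, was the gene that rose, from 47.4 ± 7.47 CPM at day 0 to 72.7 ± 17.9 CPM at day 14 and 90.4 ± 14.4 CPM at day 21 (SD, n = 4, 4 and 3), with log2 fold changes of 0.62 ± 0.16 (adjusted p = 0.00963) and 0.93 ± 0.18 (adjusted p = 0.00109). The day 14 call of Heyl was lost in 4 of 8 fits without a library and was 0.27 (adjusted p = 0.284) within the libraries over 3.5% mitochondrial share. Hey1, the related endothelial target, was lower by 1.02 ± 0.16 (adjusted p = 0.000437) at day 7 and by 0.88 ± 0.16 (adjusted p = 0.000606) at day 14.

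**Figure D3:**
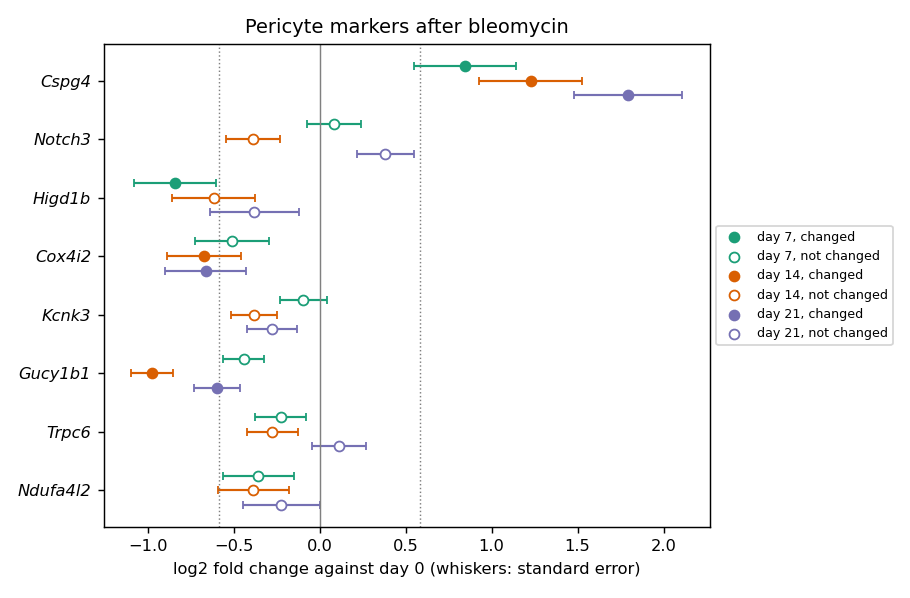
Log2 fold change against day 0 for each pericyte marker at days 7, 14 and 21 (whiskers, SE of the edgeR fit); filled points passed an adjusted p of 0.05 and a fold change of 1.5, and dotted lines mark that fold. Cspg4 is filled at all 3 days, Gucy1b1 and Cox4i2 at days 14 and 21 and Higd1b at day 7, and the other 4 markers are open throughout.

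Higd1b, Cox4i2 and Ndufa4l2 belong to families of mitochondrial respiratory chain proteins and are used as markers of lung pericytes. Higd1b, a member of the hypoxia-induced gene domain family, lies at chr11:102835849-102838040. It was at 16.2, 14.6, 21.6 and 22.9 CPM at day 0, at 9.52, 7.09, 12.7 and 12.8 CPM at day 7. The day 14 libraries held 9.75, 11.0, 14.9 and 13.6 CPM. All day 7 libraries lay below day 0, as did 3 of 4 at day 14. At day 21 it was 19.7, 9.63 and 14.2 CPM, with 2 of 3 libraries below all of day 0. In the test against day 0 the log2 fold change was -0.84 ± 0.24 (SE, adjusted p = 0.0199) at day 7, -0.62 ± 0.24 (adjusted p = 0.0594) at day 14 and -0.38 ± 0.26 (adjusted p = 0.294) at day 21.

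Replicates 3 and 4 of Higd1b at day 0, the libraries with the higher mitochondrial share, were the higher ones. The day 7 value within the libraries under 2.5% mitochondrial share was -0.57 (adjusted p = 0.121), with the share as a covariate -0.47 (adjusted p = 0.242), and without day 0 replicate 4 -0.75 (adjusted p = 0.0583). The day 7 call was also lost without day 7 replicate 1 (adjusted p = 0.0529) or replicate 2 (adjusted p = 0.0633), so in 3 of 8 such fits. At day 14 the libraries over 3.5% mitochondrial share gave -0.77 (adjusted p = 0.0222), the covariate gave -0.67 (adjusted p = 0.0186), and DESeq2 gave -0.63 (adjusted p = 0.0353). Without day 0 replicate 4 the day 14 value was -0.53 (adjusted p = 0.143), and 2 of 8 fits that left out a library passed. Day 14 was thus at the edge of the threshold.

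Cox4i2, the alternative isoform of cytochrome c oxidase subunit 4 linked to oxygen sensing in the pulmonary circulation, lies at chr2:152754173-152765037. Its level was 34.2, 17.4, 38.1 and 27.7 CPM at day 0 and 24.0, 14.96, 23.7 and 19.9 CPM at day 7. At day 14 it was 14.7, 20.8, 21.3 and 16.8 CPM, and at day 21 it was 16.4, 20.2 and 19.0 CPM. Day 0 replicate 2 was as low as the later libraries, and every later group overlapped day 0 through it. Its log2 fold change against day 0 was -0.51 ± 0.21 (SE, adjusted p = 0.0918) at day 7, -0.67 ± 0.21 (adjusted p = 0.0247) at day 14 and -0.66 ± 0.23 (adjusted p = 0.0431) at day 21. Leaving out single libraries ended the day 14 call in 4 of 8 fits (adjusted p up to 0.0713) and the day 21 call in 6 of 7 (adjusted p up to 0.113). Without day 0 replicate 4 the values were -0.72 at day 14 (adjusted p = 0.0358) and -0.72 at day 21 (adjusted p = 0.0526).

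Ndufa4l2, a hypoxia-inducible paralog of the respiratory chain subunit Ndufa4, lies at chr10:127514967-127517154 and shares 32 exon bases with Shmt2 on the other strand. It was at 21.7, 16.9, 29.2 and 18.4 CPM at day 0 and at 17.7, 11.9, 18.1 and 19.5 CPM at day 7. Later it was at 10.8, 17.3, 18.9 and 19.0 CPM (day 14) and at 20.0, 16.6 and 18.8 CPM (day 21). All groups overlapped. Day 7, 14 and 21 log2 fold changes were -0.36 ± 0.21 (SE, adjusted p = 0.218), -0.38 ± 0.21 (adjusted p = 0.169) and -0.22 ± 0.22 (adjusted p = 0.489) in this order.

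Of the widely expressed paralogs Ndufa4, Cox4i1, Higd1a and Higd2a, 0 passed the thresholds at any day. At day 14 Cox4i1, the common isoform of the subunit, was at 0.50 ± 0.20 (SE, adjusted p = 0.0651) and Ndufa4 at 0.46 ± 0.15 (adjusted p = 0.0244, under the fold threshold) on the log2 scale, while Higd1a was at -0.28 ± 0.12 (adjusted p = 0.0883). At day 21 Higd1a was at 22.3 to 25.7 CPM, below all day 0 libraries, with a log2 fold change of -0.46 ± 0.13 (adjusted p = 0.0169, under the fold threshold). The difference between a marker and its paralog was not tested. Of 9 hypoxia-inducible genes, 0 were higher and 1 lower at day 7, 2 higher (Ankrd37 and Adm) and 1 lower (Bnip3) at day 14, and 4 higher (Slc2a1, Ankrd37, Ndrg1 and Adm) and 0 lower at day 21. Of all genes, 8.78% were higher and 7.36% lower at day 7, 12% and 11.2% at day 14, and 12.4% and 10.1% at day 21. Ankrd37, a hypoxia-inducible factor target, rose by 2.03 ± 0.35 (adjusted p = 0.000455) at day 14 and by 2.28 ± 0.36 (adjusted p = 0.000316) at day 21 on the log2 scale. Ndufa4l2 was not called on these days (adjusted p = 0.169 and 0.489), and its difference from the hypoxia-inducible genes was not tested.

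Kcnk3 encodes the acid-sensitive potassium channel TASK-1 and lies at chr5:30588170-30625271, where 229 exon bases are shared with Gm9899 on the other strand. Its level was 24.7, 18.4, 19.2 and 23.2 CPM at day 0 and 17.6, 17.1, 23.1 and 22.4 CPM at day 7. At day 14 it was 16.4, 16.7, 17.8 and 14.8 CPM, wholly below day 0, and at day 21 it was 16.8, 19.6 and 16.5 CPM. The day 7 and day 21 groups overlapped day 0. The day 14 log2 fold change was -0.38 ± 0.14 (SE, adjusted p = 0.0421), under the fold threshold, and the values at days 7 and 21 were -0.09 ± 0.14 (adjusted p = 0.647) and -0.28 ± 0.15 (adjusted p = 0.175).

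Trpc6 encodes a cation channel opened by diacylglycerol that lets calcium into vascular cells, and lies at chr9:8544142-8680741. It was at 19.0, 16.8, 19.2 and 17.6 CPM at day 0 and at 15.2, 13.3, 15.7 and 18.0 CPM at day 7. Later it was at 12.6, 13.7, 19.5 and 14.3 CPM (day 14) and at 18.0, 18.0 and 22.9 CPM (day 21). At days 7 and 14, 3 of 4 libraries lay below all of day 0, and the day 21 libraries lay within or above its range. The log2 fold change was -0.23 ± 0.15 (SE, adjusted p = 0.274), -0.27 ± 0.15 (adjusted p = 0.166) and 0.11 ± 0.16 (adjusted p = 0.636) at days 7, 14 and 21.

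The relatives of Kcnk3 that were tested, Kcnk1, Kcnk2, Kcnk5 and Kcnk6, differed in direction. Kcnk2, the stretch-activated potassium channel TREK-1, fell from 44.4 ± 13.2 CPM at day 0 to 24.6 ± 6.22, 15.5 ± 5.43 and 14.9 ± 1.83 CPM (SD, n = 4, 4, 4 and 3). Its log2 fold changes were -0.85 ± 0.25, -1.51 ± 0.26 and -1.57 ± 0.29 (adjusted p = 0.0240, 0.000462 and 0.000875). Kcnk5 was lower by 0.88 ± 0.20 (adjusted p = 0.00403) at day 14 and by 0.69 ± 0.22 (adjusted p = 0.0284) at day 21. Kcnk6 had values of 0.47 ± 0.12, 0.53 ± 0.12 and 0.53 ± 0.13 at the 3 days (adjusted p = 0.0127, 0.00398 and 0.00707), each under the fold threshold, and Kcnk1 passed at no day. The difference between Kcnk3 and these paralogs was not tested.

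Levels of different genes can be set side by side only per length. Per kilobase of exon, Cox4i2 (37.3 ± 11.5 CPM per kb), Gucy1b1 (29.2 ± 4.0), Higd1b (22.3 ± 4.76) and Ndufa4l2 (19.7 ± 5.01) stood highest at day 0 (SD, n = 4), and each overlapped its neighbour in this order. Notch3 (10.1 ± 0.87 CPM per kb), Kcnk3 (5.38 ± 0.77), Trpc6 (3.59 ± 0.23) and Cspg4 (1.34 ± 0.14) followed, with no overlap between neighbours. At day 21 Cspg4 stood at 4.65 ± 1.93 CPM per kb (n = 3) and overlapped both Kcnk3 (4.44 ± 0.43) and Trpc6 (3.87 ± 0.56).

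The summed level of the 8 markers was 274 to 350.2 CPM at day 0 and 245 to 318 CPM at day 7. It was 199 to 261 CPM at day 14 and 283 to 354 CPM at day 21, so the day 14 libraries lay below all day 0 libraries and the day 21 libraries across their range. Neither the sum nor the shares within it are per length, so genes with many counts weigh most. Within this sum, Gucy1b1 supplied 35.6 ± 1.32%, 29.8 ± 1.60%, 24.7 ± 0.58% and 23.6 ± 4.55% of the marker counts on days 0, 7, 14 and 21. Notch3, the next largest at day 0, supplied 25.7 ± 2.90%, 30.7 ± 1.78%, 26.3 ± 3.89% and 32.6 ± 2.62%. Cspg4 supplied 5.00 ± 0.66%, 10.2 ± 0.75%, 15.6 ± 7.00% and 16.5 ± 5.48% (SD, n = 4, 4, 4 and 3). The ratio of Cspg4 to Gucy1b1 counts, in which library size cancels, was 0.141 ± 0.0234, 0.343 ± 0.0410, 0.634 ± 0.300 and 0.745 ± 0.342 on the same days. This ratio sets the marker that was higher at every day against the one that fell most at day 14, so its direction was fixed by that choice and it is a description only.

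A list of 15 other mural genes was counted in the same way: Pdgfrb, Rgs5, Abcc9, Kcnj8, Mcam, Anpep, Vtn, Heyl, Gucy1a1, Pde5a, Enpep, Foxs1, Ebf1, Lamc3 and Postn. Gucy1a1, Pde5a and Heyl were also in the lists above, so their calls are counted again here. Of the 15, all tested, 1 was higher and 0 lower at day 7, 5 were higher and 6 lower at day 14, and 6 were higher and 4 lower at day 21, beside the shares of all genes given above, and their median log2 fold changes were -0.17, -0.48 and 0.25. Without day 14 replicate 1 the day 14 calls of Rgs5, Heyl, Postn and Pde5a were lost, and Lamc3 passed as lower. Without day 21 replicate 1 the day 21 calls of Gucy1a1, Pde5a and Postn were lost. The largest rise was that of Rgs5, a regulator of G protein signalling and a widely used pericyte marker. Rgs5 was at 7.51 to 14.1 CPM at day 0 and 6.66 to 10.7 CPM at day 7, at 20.7, 13.6, 18.9 and 15.6 CPM at day 14, and at 118, 39.8 and 50.4 CPM at day 21. All day 21 libraries stood above all others. The log2 fold change was 2.82 ± 0.32 (SE, adjusted p = 2.08e-05) at day 21 and 2.16 (adjusted p = 4.43e-05) without day 21 replicate 1, while the day 14 value of 0.81 ± 0.30 (adjusted p = 0.0491) lost its call in 7 of 8 fits without a library and was 0.41 (adjusted p = 0.253) within the libraries over 3.5% mitochondrial share.

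Pdgfrb, the PDGF-B receptor of mural cells and fibroblasts, was higher at day 21 by 1.15 ± 0.17 (adjusted p = 0.000186), while its ligand Pdgfb passed the thresholds at no day. Mcam, the adhesion molecule CD146, was higher by 0.97 ± 0.12 (adjusted p = 4.03e-05) at day 14 and by 1.03 ± 0.13 (adjusted p = 5.35e-05) at day 21. Foxs1, a transcription factor of mural cells, was higher at all 3 days, by 1.52 ± 0.24 (adjusted p = 0.000282) at day 21. The level of Foxs1 was low, at 1.29 to 1.63 CPM at day 0 and 2.68 to 4.29 CPM at day 14. Postn and Heyl were the remaining genes that were higher at days 14 and 21. The day 14 call of Postn was lost in 3 of 8 fits that left out a library, with 0.39 (adjusted p = 0.117) without day 14 replicate 1, and was 0.44 (adjusted p = 0.106) within the libraries over 3.5% mitochondrial share. Its day 21 call was lost without day 21 replicate 1 (0.77, adjusted p = 0.0617). On the other side, Vtn (vitronectin) fell from 13.1 ± 1.95 CPM to 4.43 ± 1.35 CPM at day 14 (SD, n = 4), a log2 fold change of -1.57 ± 0.28 (adjusted p = 0.000573), and Enpep (aminopeptidase A) fell by 2.08 ± 0.36 (adjusted p = 0.000624) at day 21. Abcc9, the sulfonylurea receptor subunit of the vascular potassium channel, was lower at day 14 by 1.19 ± 0.23 (adjusted p = 0.00119), while its channel partner Kcnj8 was at -0.20 ± 0.20 (adjusted p = 0.467).

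**Figure D4:**
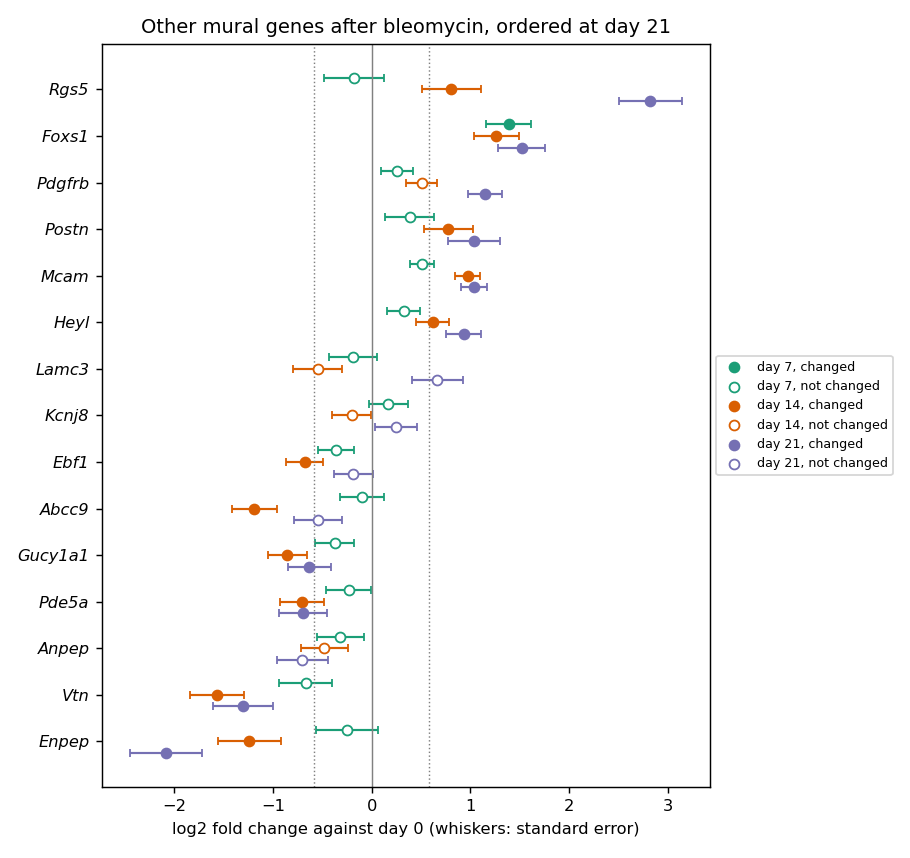
Log2 fold change against day 0 for 15 other mural genes at days 7, 14 and 21 (whiskers, SE of the edgeR fit), ordered by the day 21 value; filled points passed an adjusted p of 0.05 and a fold change of 1.5. Rgs5 at 2.82 and Enpep at -2.08 are the ends of the day 21 order, and 6 genes are filled on the right and 4 on the left at that day.

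Lists of other cell types moved as well, and their part in the marker values was not tested. Of 7 epithelial genes 0 were higher and 2, 4 and 4 were lower at days 7, 14 and 21, and of 5 leukocyte genes 1 was higher at each day (Cd68) and 1, 1 and 2 were lower. Of 5 adipocyte genes 1, 5 and 4 were lower, with a summed level of 19.8 to 68.7 CPM at day 0 and 1.3 to 3.5 CPM at day 14. Cardiac muscle genes summed to 18.8 to 757.9 CPM over the 15 libraries, and 1 of the 6 tested (Myh6) was lower, at day 14. These counts stand beside lower shares of 7.36%, 11.2% and 10.1% over all genes at the 3 days.

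Beyond the markers, several calls named above did not pass without day 0 replicate 4, the library with the unclear label. At day 7 they were those of Notch4 (-0.57, adjusted p = 0.111), Dll4 (-0.75, adjusted p = 0.104) and Npr1 (-0.62, adjusted p = 0.0909). At day 14 they were those of Postn (0.70, adjusted p = 0.0722), Myh6 (adjusted p = 0.0839) and Pde3a (-0.57, under the fold threshold), while Pdgfb (0.59, adjusted p = 0.0168) and the T cell gene Cd3e (-0.98, adjusted p = 0.0475) passed there, so that 2 leukocyte genes were lower. Slc2a1 (0.70, adjusted p = 0.0691) and Pde5a did not pass at day 21.

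Between later days, 0 of the 8 markers were called in day 14 against day 7, where 6.00% of all genes were, and 0 in day 21 against day 14. From day 14 to day 21 all 8 markers had a log2 fold change above 0, with a median of 0.31 and a range from 0.01 (Cox4i2) to 0.77 (Notch3), beside a median of -0.00 over all genes tested. The sign for Cox4i2, Higd1b and Ndufa4l2 turned when single libraries were left out.

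The genes with the most similar course over the 15 libraries were found by the root mean square difference of centred log2 CPM among 11849 protein-coding genes with a mean of at least 5 CPM. For Cspg4 they were Prrx1 and Ssc5d, at 0.23 and 0.23 beside a spread of Cspg4 itself of 0.72, and Prrx1 is a transcription factor of mesenchymal cells. Gucy1b1 was nearest to Patz1 and Ehd4 (0.16 and 0.16, own spread 0.39), Notch3 to Stox2 and Etl4 (0.21 and 0.21, own spread 0.34), Higd1b to Dmtn and Marveld1 (0.24 and 0.24, own spread 0.45), and Cox4i2 to Sept4 and Ccdc85b (0.20 and 0.21, own spread 0.39). Kcnk3 was nearest to Trib2 and Hp1bp3 (0.13 and 0.13, own spread 0.21), Trpc6 to Parp8 and Eml1 (0.14 and 0.15, own spread 0.23), and Ndufa4l2 to Zfp952 and Neil1 (0.19 and 0.19, own spread 0.32). For every marker except Cspg4 and Gucy1b1 the distance to the nearest gene was more than 0.5 times its own spread.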

How the data were processed

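Polyadenylated RNA was sequenced in 15 whole-lung libraries. The authors aligned reads to mm10 with HISAT2 2.1.0, dropped multi-mapped reads, and the deposited values are raw, unnormalized counts per Ensembl gene from HTSeq 0.6.0. Neither the annotation release nor whether counting used strand is given in the sources used here, so reads in stretches shared with a gene on the other strand cannot be assigned. GENCODE M21 matched 33267 of 33340 identifiers, and its exon lengths gave CPM per kb. 450 genes had no count.

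Counts were analysed in edgeR 4.0.16 (R 4.3.3) with filterByExpr, TMM factors and glmQLFTest, a model with day alone, fitted to the 15 libraries together. The study used DESeq2 1.40.2. Its thresholds for mouse RNA-seq, an adjusted p of 0.05 and a fold change of 1.5, were kept. Log2 CPM for the search of similar genes used a prior count of 2. SE are on the log2 scale. The markers and the other lists were chosen with earlier results of these data known, so the lists carry no independent weight. The genes named were the 8 markers, members of these lists and, for each marker, the 2 nearest genes. The result of 1 list, of ion channel relatives, is not reported here as a whole. The fit was tested on simulated data first.

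Alternatives were DESeq2 1.42.0, RLE factors, total counts, a filter at a mean of 1 CPM, no filter, limma 3.58.1 voom, the 2 groups alone, a replicate block, the log2 mitochondrial share as a covariate, no fold change threshold, and each library left out. Fits within libraries under 2.5% or over 3.5% mitochondrial share were added after the data were seen. The labels name no batch.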

Additional observations from a re-analysis of the deposited data

Results flagged for a closer look

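Of 69 groups of 4 libraries, from the 8 markers and 15 other mural genes at days 0, 7 and 14, 2 held a library whose gap to its neighbour, as a share of the group's range, passed Dixon's 95% critical value, and chance gives about 5% of groups. The gap was 0.908 of the range for Lamc3 and 0.837 for Postn, while Cspg4 at day 14, with replicate 1 high, came just short at 0.826. Lamc3, a laminin chain, was at 27.0 CPM in day 0 replicate 4, while the others of that day held 19.1 to 19.8 CPM. Postn, the matrix protein periostin, reached 537 CPM in day 14 replicate 1, while replicates 2 to 4 held 220 to 272 CPM.

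Gucy1b1 differed between day 14 and day 7, with a log2 fold change of -0.53 (edgeR adjusted p = 0.0203), less than 1.5-fold and therefore not called. The adjusted p was up to 0.0643 when single libraries were left out. Adding the mitochondrial share to the model gave 0.122. Notch3 lay below the day 0 mean in every day 14 library and above it in every day 21 library. Its value at day 21 was 0.38, and the difference between day 21 and day 14 was tested, 0.77 with an edgeR adjusted p of 0.237.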

How the results depend on the processing

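The model did not pair libraries by replicate number. The correlations of deviations of same-numbered libraries ran from -0.24 to 0.40, and in no comparison was each above 0.1. In day 7 against day 0, day 14 against day 7 and day 21 against day 14, each was above 0. Differently numbered libraries were not set beside them, so the check cannot say whether a pairing was present. With a replicate block the count of markers changed stayed within 1.5 times in each comparison; Cox4i2 at day 21 gave -0.65 (adjusted p = 0.0535) and Higd1b at day 14 gave -0.60 (adjusted p = 0.0209).

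The count of changed markers at day 7, 2 in the fit reported, was 1 with RLE factors, a mean of at least 1 CPM, limma voom or the libraries under 2.5% mitochondrial share, 0 with that share as a covariate, and 0 to 2 when single libraries were left out. At day 21, 3 in the fit reported, it was 1 to 3 without single libraries, with 1 without day 0 replicate 1, day 0 replicate 3 or day 21 replicate 1. For day 14 against day 7 it was 1 with no fold change threshold (Gucy1b1), and for day 21 against day 14 it was 1 with DESeq2 and 1 with no filter (Notch3), in place of 0. The cause was not tested.

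The sign turned in some fits of values that were not called. Without single libraries, Cspg4 in day 14 against day 7 ran from -0.0402 (without day 14 replicate 1) to 0.53, Trpc6 from -0.20 to 0.0299 and Ndufa4l2 from -0.16 to 0.13. In day 21 against day 14, Higd1b ran from -0.0532 to 0.45, Cox4i2 from -0.0935 to 0.0903 and Ndufa4l2 from -0.0060 to 0.24. Against day 0, Trpc6 at day 21 ran from -0.0557 to 0.14, Rgs5 at day 7 from -0.31 to 0.0306 and Abcc9 at day 7 from -0.23 to 0.0338. Higd1b in day 14 against day 7 was -0.21 with the covariate, Cox4i2 in day 21 against day 14 was -0.0050 with no filter and -0.0049 with the replicate block, and Rgs5 at day 7 was 0.11 with the covariate and 0.17 in the libraries under 2.5%. Of 680 values of the markers under an alternative, 618 kept direction and call, 33 lost a call, 12 gained 1 and 17 changed sign. The lowest marker count in a library, 127, carries a counting error below the common biological coefficient of variation of 22.8%.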
